A study of Mus musculus with 6 samples.

Results

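The proteasome genes described here are 42 mouse genes chosen by symbol: the subunits of the 20S core particle, the subunits of the 19S cap, the activators and one inhibitor that bind the core, and genes for its assembly and regulation. All 42 were found among the 16836 genes of the deposited table. By role they were 7 alpha subunits of the core, 7 constitutive beta subunits, the inducible beta subunit Psmb10, 6 ATPases of the cap, 11 cap subunits that are not ATPases, 5 activators and inhibitors, and 5 assembly and regulatory genes. RNA sequencing of polyadenylated transcripts was run on cultured bone marrow-derived macrophages, which are grown from marrow precursors. The libraries came from Ube3a-/- mice (KO, 3 libraries) and from wild-type littermates (WT, 3 libraries). The labels used here give no treatment, age, sex, strain or knockout allele, and do not state whether the libraries stem from different animals. The p-values thus rest on the spread among these libraries, which may be partly technical. UBE3A is an E3 ubiquitin ligase, an enzyme that attaches ubiquitin to proteins, and the comparison asked what the transcriptome of macrophages is like without it.

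As background, the 26S proteasome is the protease that degrades ubiquitinated proteins. Its 20S core is a barrel of stacked rings, in which alpha subunits form the gates and the beta subunits encoded by Psmb5, Psmb6 and Psmb7 carry the cutting sites. The 19S cap binds ubiquitin chains, removes them, unfolds the substrate with its ring of ATPases and feeds it into the core. In cells exposed to interferon, the catalytic subunits encoded by Psmb8, Psmb9 and Psmb10 replace the constitutive ones to form the immunoproteasome, and the PA28 activator encoded by Psme1 and Psme2 can take the place of the cap, a system known in macrophages for the supply of peptides to MHC class I.

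The libraries held 25454862, 30957583 and 32294791 reads in KO and 31046256, 28651459 and 35517269 in WT, and each proteasome gene had 593 to 11812 reads in every library. Levels are in CPM (reads scaled to one common library size, with the authors' own scaling), and fold changes are limma log2 fold changes of CPM + 1, KO over WT. Ube3a itself stood at 69.7, 61.2 and 77.0 CPM in KO, against 207, 194 and 178 CPM in WT, with a log2 fold change of −1.47 (limma with Benjamini-Hochberg adjustment, adjusted p = 0.00444). The 10 macrophage markers were all detected and summed to 14616 to 17435 CPM over the libraries. Of 10 neutrophil and granule markers, 8 were in the table and summed to 2.88 to 16.7 CPM. Of 7 T, NK and B cell markers 1 was in the table, at 0.120 CPM or less. The replicates numbered 2 stand apart from the rest: their Xist reads numbered 28 (KO) and 14 (WT), while the remaining libraries held 30161 to 42232. Xist RNA marks female cells, so by these reads the libraries of a genotype did not all come from a single animal. How many animals there were is not given in the labels. In bulk samples, fewer cells of a type and less RNA per cell cannot be told apart.

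No proteasome gene was called as changed with the loss of Ube3a. All 42 passed the filter on low levels, and 0 of 42 passed the test, where 2 of 12118 tested genes (0.0165%) did (limma, adjusted p under 0.05). With limma-voom the count was also 0 of 42. At an unadjusted p under 0.05 there was 1 of the 42, Psmd14, against 4.13% of all tested genes. The fold change was positive for 19 of the genes and negative for 23, and ran between −0.15 for Psmd14 and 0.17 for Psmb10. Its median was −0.02, beside 0.0015 over all tested genes. The transcripts of all 42 genes summed to 5174, 4895 and 5029 CPM in KO, and to 4963, 5112 and 5015 CPM in WT. These totals overlapped, with the highest and the lowest both in KO.

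The intervals of these differences were narrow. The 95% interval of the fold change lay within 1.3-fold in either direction for 40 of the 42 genes (95.2%), compared with 65.8% of all tested genes and 82.8% of the 6235 tested genes in the same range of levels. It lay within 1.5-fold for all 42, against 90.4% of all tested genes and 96.0% of those in the same range. The spread between libraries of one genotype had a median SD of 0.0661 on the log2 scale for the proteasome genes, 0.116 for all tested genes and 0.0953 for tested genes in the same range of levels. Levels were not matched within that range, and the part of level in these contrasts was not tested. Counting error alone would give the proteasome genes an SD of 0.015 to 0.059. The highest library exceeded the lowest by a median of 1.14-fold for the proteasome genes, beside 1.25-fold for all tested genes. By role, the median SD was 0.0486 for the alpha subunits, 0.0623 for the constitutive beta subunits, 0.0751 for the ATPases, 0.0631 for the other cap subunits, 0.0548 for assembly and regulation and 0.124 for the activators and inhibitor, and Psmb10 alone had 0.219.

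**Figure D1:**
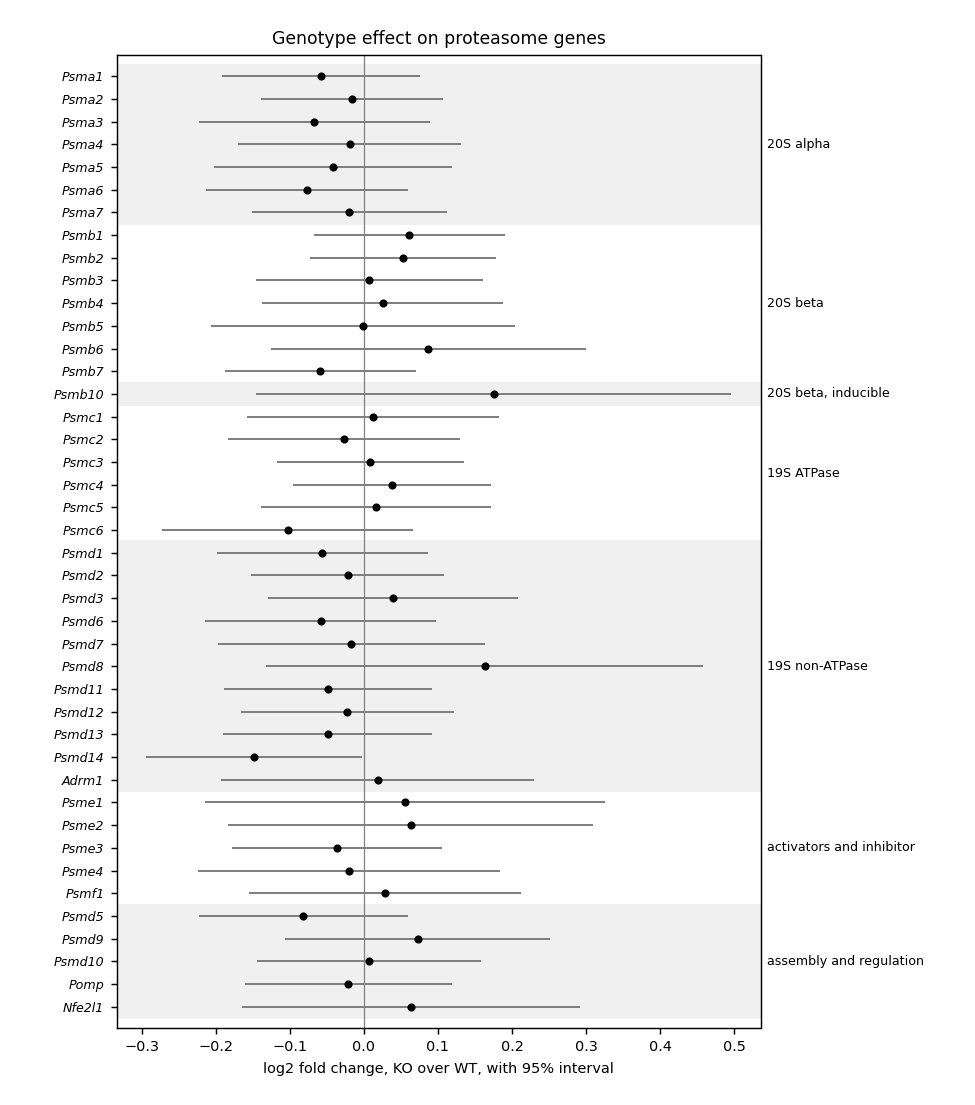
Log2 fold change of each of the 42 proteasome genes, KO over WT, on the log2(CPM + 1) scale, grouped by role; points are limma estimates from 3 libraries per genotype and bars are 95% intervals. The estimates lie between −0.15 and 0.17, and the widest bars belong to Psmb10 and Psmd8.

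The alpha subunits form the outer rings of the core and its gate. All 7 had a negative fold change, with a median of −0.04, and none passed the test. Their summed level was 740.4, 728 and 768 CPM in KO and 773, 758 and 775 CPM in WT, so that a KO library lay within the WT range. Psma6 had 159, 150.4 and 160.2 CPM in KO and 171, 164 and 160.6 CPM in WT. Every KO value of Psma6 was below every WT value, the nearest pair by less than 1 CPM, and its fold change was −0.08 (95% interval −0.21 to 0.06; limma, adjusted p = 0.866). Psma1 had 169, 166 and 178 CPM in KO, against 173, 178 and 182 CPM in WT. Psma3 had 45.5, 43.4 and 48.5 CPM in KO, against 48.4, 49.4 and 46.2 CPM in WT. Values of both genes overlapped between genotypes, and both had an adjusted p of 0.880 (limma).

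The constitutive beta subunits line the inside of the core. Of these 7 genes, 5 had a positive and 2 a negative fold change, with a median of 0.03. They summed to 699.8, 696 and 674 CPM in KO and to 655.5, 683 and 686 CPM in WT. Psmb5, which carries the chymotrypsin-like site, had 23.7, 27.7 and 22.7 CPM in KO and 24.0, 24.6 and 25.3 CPM in WT. The KO values of Psmb5 lay on both sides of the WT range, and its fold change was −0.0017 (95% interval −0.21 to 0.20). Psmb6, with the caspase-like site, had 136, 128 and 112 CPM in KO and 111, 129 and 113 CPM in WT, and Psmb7, with the trypsin-like site, had 109, 102 and 104 CPM in KO and 110.1, 108 and 111 CPM in WT. Neither separated the genotypes, with fold changes of 0.09 for Psmb6 and −0.06 for Psmb7 (limma, adjusted p = 0.886 for Psmb6 and 0.878 for Psmb7).

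Psmb1 and Psmb2 encode beta subunits without a cutting site. Psmb1 had 132, 131 and 139.6 CPM in KO, against 127, 128 and 130.5 CPM in WT. Psmb2 had 102.2, 102.5 and 102.0 CPM in KO, against 99.4, 95.5 and 101 CPM in WT. For both genes all KO values were above all WT values, but by small margins, with fold changes of 0.06 for Psmb1 and 0.05 for Psmb2 (limma, adjusted p = 0.877 for Psmb1 and 0.883 for Psmb2). In all, 4 of the 42 genes (9.52%) had genotypes that did not overlap: Psmb1, Psmb2, Psma6 and Psmd14. The share over all tested genes was 9.95%, with all KO values higher in 4.41% and lower in 5.55%.

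**Figure D2:**
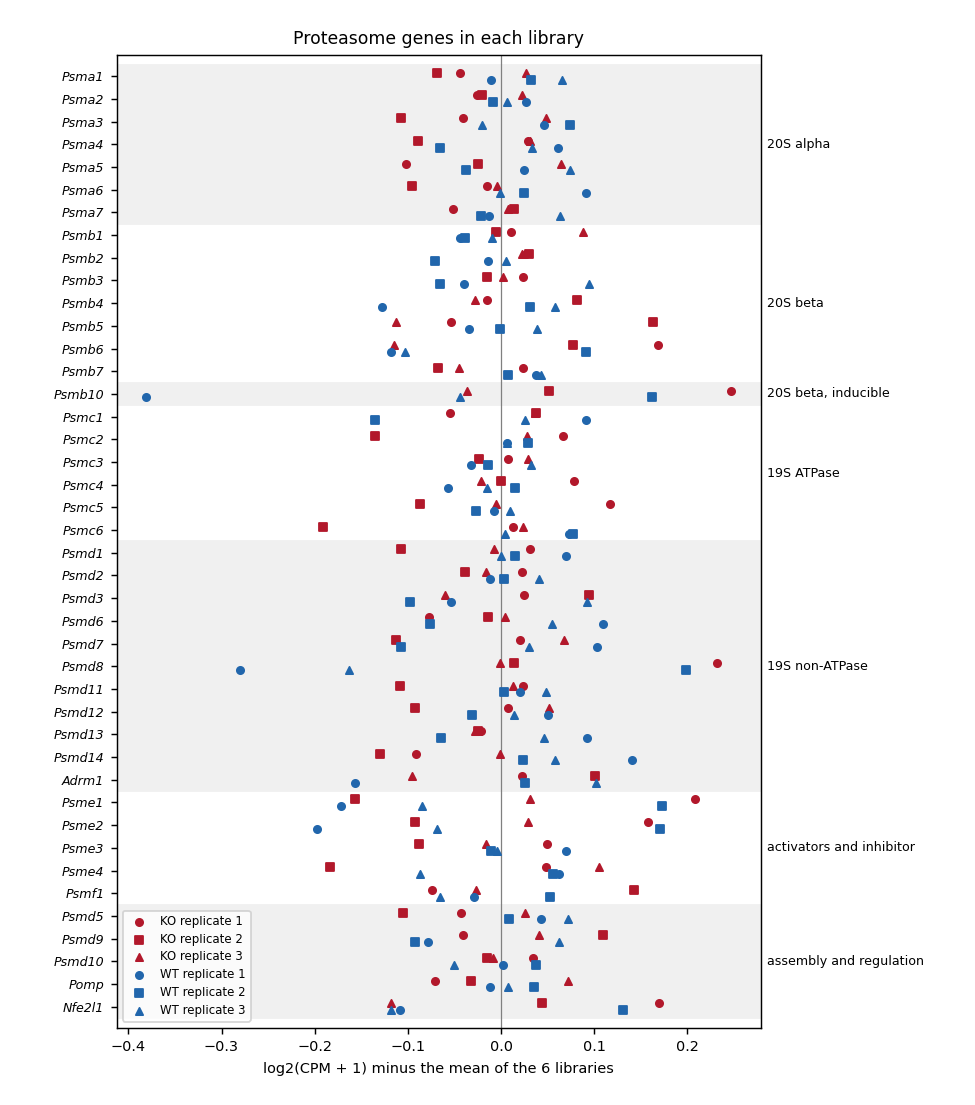
Level of each of the 42 proteasome genes in each library as the difference from the gene's own mean over the 6 libraries, on the log2(CPM + 1) scale, grouped by role, with KO points above WT points. Most genes stay close to 0, while Psmb10, Psmd8, Psme1 and Psme2 have the widest range over the libraries.

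The ATPases of the cap, Psmc1 to Psmc6, unfold the substrate and open the gate. Of the 6, 4 had a positive and 2 a negative fold change, with a median of 0.01. Their sums were 833, 780.0 and 825 CPM in KO and 823, 809.5 and 822 CPM in WT. Psmc6 had 133, 115 and 134 CPM in KO, against 139, 139 and 132 CPM in WT, with a fold change of −0.10 (95% interval −0.27 to 0.07; limma, adjusted p = 0.866). The KO value at 115 CPM was the lowest of the gene, and the other KO libraries lay within the WT range. Psmc2 had 156, 135 and 152 CPM in KO and 149, 152 and 149 CPM in WT. Psmc4 had 117, 111 and 109.1 CPM in KO and 106, 112 and 109.6 CPM in WT. Both overlapped between genotypes.

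The other cap subunits form its base and lid. Of the 11 genes, 3 had a positive and 8 a negative fold change, with a median of −0.02, and the sums were 1757, 1649 and 1692 CPM in KO and 1678, 1723.5 and 1698 CPM in WT. Psmd14 (chr2:61711694-61800376, plus strand, GRCm38) encodes the deubiquitinase of the lid, which removes ubiquitin chains from substrates as they enter. It stood at 116, 113 and 124 CPM in KO (117 ± 5.46, SD, n = 3), against 136, 126 and 129 CPM in WT (130.3 ± 5.50, SD, n = 3). All KO values were below all WT values, and the KO mean was 0.902 times the WT mean. The fold change was −0.15 (95% interval −0.29 to −0.0020), with a limma p of 0.0476 before and 0.866 after adjustment over all tested genes, so Psmd14 did not pass the test.

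Psmd8 (chr7:29174188-29180701, minus strand), a lid subunit, was the most abundant of the 42 in CPM and among the most variable. It had 401, 345 and 342 CPM in KO (363 ± 33.6, SD, n = 3) and 281, 392 and 305 CPM in WT (326 ± 58.5, SD, n = 3). The WT libraries spread more widely than the KO libraries and overlapped them, and the fold change was 0.16 (95% interval −0.13 to 0.46; limma, adjusted p = 0.866). Psmd1, the large scaffold subunit of the base, had 229.6, 209 and 223 CPM in KO and 236, 227 and 225 CPM in WT, with a fold change of −0.06. Adrm1, a ubiquitin receptor, had 30.0, 31.7 and 27.6 CPM in KO and 26.4, 30.1 and 31.7 CPM in WT, with a fold change of 0.02. Both overlapped between genotypes.

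Among activators and inhibitors, Psme1 and Psme2 encode the alpha and beta chains of PA28, Psme3 encodes the nuclear activator PA28 gamma, Psme4 encodes PA200 and Psmf1 encodes the inhibitor PI31. Of the 5 genes, 3 had a positive and 2 a negative fold change, with a median of 0.03. Psme1 had 119, 92.1 and 105 CPM in KO (105 ± 13.4, SD, n = 3) and 91.1, 116 and 96.9 CPM in WT (101 ± 13.0, SD, n = 3). Psme2 had 70.6, 59.2 and 64.5 CPM in KO (64.8 ± 5.69, SD, n = 3) and 55.0, 71.2 and 60.2 CPM in WT (62.1 ± 8.31, SD, n = 3). In both genes KO replicate 1 and WT replicate 2 were high, and KO replicate 2 and WT replicate 1 were low, so the genotypes overlapped almost fully. Both had a fold change of 0.06 (limma, adjusted p = 0.927 for Psme1 and 0.915 for Psme2).

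Psme3 had 143, 129.8 and 136 CPM in KO and 145, 137 and 138 CPM in WT, with a fold change of −0.04. Psme4 had 157, 133 and 163 CPM in KO and 158, 158 and 143 CPM in WT, with a fold change of −0.02. Psmf1 had 33.4, 39.0 and 34.5 CPM in KO and 34.5, 36.5 and 33.6 CPM in WT, with a fold change of 0.03. The genotypes overlapped in all 3 genes.

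Pomp encodes the chaperone that completes the beta rings, and Nfe2l1 encodes the transcription factor that raises proteasome genes when proteasome activity is short. Pomp had 106, 109 and 117 CPM in KO and 110.1, 114 and 112 CPM in WT, with a fold change of −0.02. Nfe2l1 had 334, 306 and 273.0 CPM in KO (304 ± 30.3, SD, n = 3) and 275.0, 325 and 273.0 CPM in WT (291 ± 29.3, SD, n = 3). Its values overlapped, with a fold change of 0.06 (limma, adjusted p = 0.911). The cap chaperones Psmd5, Psmd9 and Psmd10 completed this group, in which 3 genes had a positive and 2 a negative fold change, with a median of 0.01.

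Levels can be compared between genes only per length, so CPM was divided by the kilobases of merged exons in GENCODE M21. On this scale the medians by role were 60.0 for the ATPases, 37.7 for the alpha subunits, 36.0 for the activators and inhibitor, 35.4 for the other cap subunits, 31.4 for the constitutive beta subunits and 19.5 for assembly and regulation. The highest genes were Psma6 with 130.4 and Psmd8 with 113 CPM per kilobase, and the lowest were Psmd9 with 4.05 and Psmf1 with 5.47. With exons from basic transcripts only, which shortened genes by up to 3.00 times, the order changed, with medians of 92.5 for the constitutive beta subunits, 80.1 for the ATPases, 76.8 for the alpha subunits, 66.1 for the other cap subunits, 51.8 for the activators and inhibitor and 19.5 for assembly and regulation. The roles can therefore not be ranked by level from these data. On the basic lengths Psmd8 had 156 and Psmb6 had 152 CPM per kilobase. Psmb8, the inducible counterpart of Psmb5 and not among the 42, had 34.9 to 52.3 CPM per kilobase over the libraries. Psmb5 itself had 25.3 to 30.8, so Psmb8 lay above Psmb5 in every library by this measure. For the other catalytic pairs the inducible gene had the lower mean: Psmb9 had 10.1 and Psmb6 had 64.9 CPM per kilobase, and Psmb10 had 28.4 and Psmb7 had 31.4. On these lengths Psmb10 was nevertheless above Psmb7 in KO replicate 1 (33.5 against 31.9) and, by a small margin, in WT replicate 2 (31.6 against 31.5). On the basic lengths the mean was 37.0 for Psmb10 and 92.5 for Psmb7, so the closeness of this pair depends on the lengths used. Psmb5, Psmb6, Psmb7 and Psme2 have named copies or pseudogenes in the annotation, and 5 of the 42 genes, Psme1 among them by 14 bases with Emc9, share exon bases with another tested gene. The rule for assigning such reads is not known here, which leaves the levels of these genes uncertain.

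The widest range over the libraries belonged to Psmb10, Psmd8, Psme1 and Psme2, and the libraries also differed in their level of interferon-stimulated genes. That level was taken as the mean over 29 interferon-stimulated genes, none of them a proteasome gene, of log2(CPM + 1) minus the gene's mean. It was 0.92, −0.74 and 0.13 in KO and −0.68, 0.76 and −0.38 in WT, high in KO replicate 1 and WT replicate 2 and overlapping between genotypes. A limma fit with genotype and this level as terms was made over all genes, in which the slope is the log2 change of a gene per unit of the level. The slope passed the test in 272 of 12118 tested genes (2.24%) and in 1 of the 42 proteasome genes (2.38%), a share near the background. The 272 include all 29 genes that define the level, each with a positive slope. They raise this background and the share of positive slopes given further below. At an unadjusted p under 0.05 there were 4 of the 42 (9.52%), beside 13.6% of all tested genes. The median slope was 0.0101 for the proteasome genes and 0.0046 for all tested genes. The 1 gene was Psme1, and the other 3 were Psme2, Psmd8 and Psmb10.

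**Figure D3:**
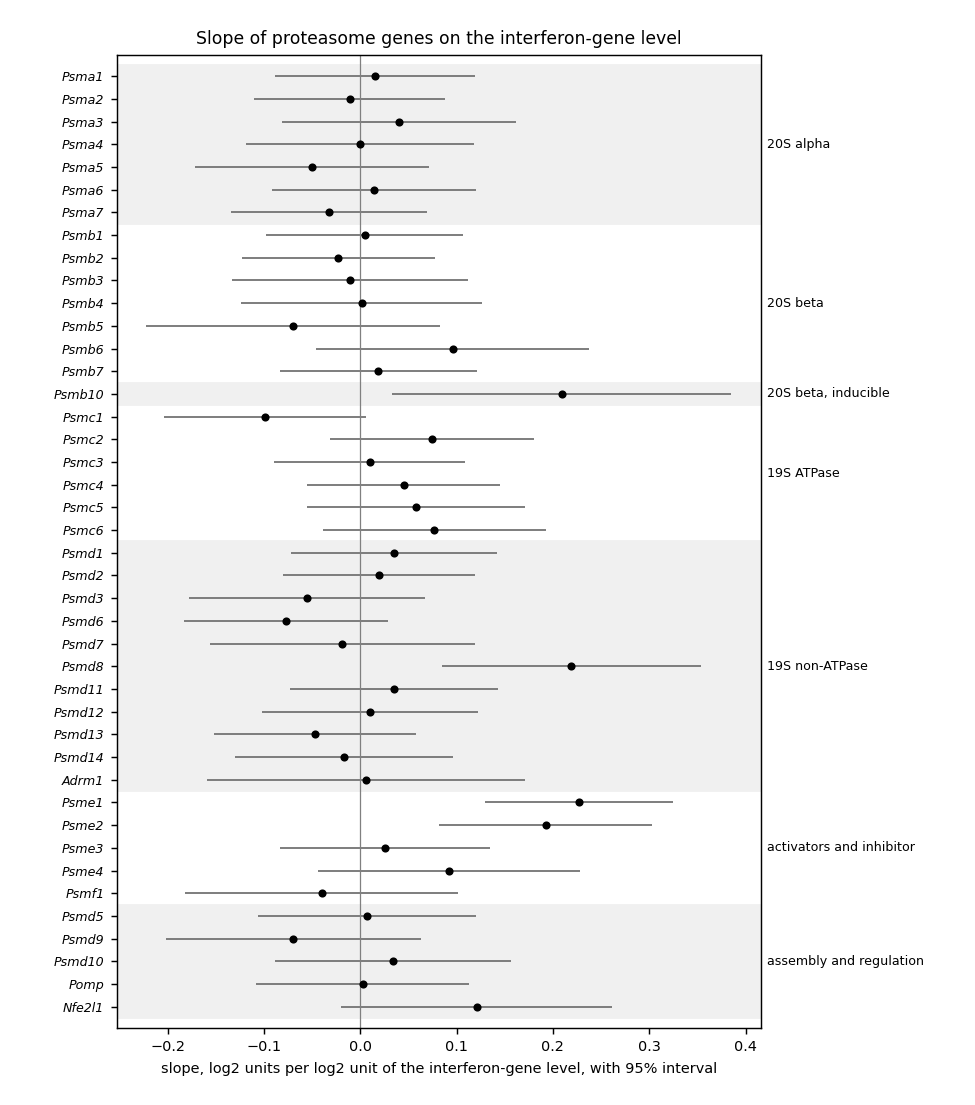
Slope of each of the 42 proteasome genes on the interferon-gene level of the library, in log2 units of the gene per log2 unit of the level, from a limma fit with genotype as a second term over 6 libraries; bars are 95% intervals. Psme1, at 0.23, is the gene that passed the adjusted threshold, and Psmd8, Psmb10 and Psme2 have estimates of 0.22, 0.21 and 0.19.

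Psme1 (chr14:55578123-55581529, plus strand) had a slope of 0.23 ± 0.04 (SE; 95% interval 0.13 to 0.32; limma, adjusted p = 0.0318). Its order over the libraries followed the level except for one exchange of neighbours, with Pearson's r = 0.998 (exact permutation p = 0.00278) and Spearman's rho = 0.943 (exact permutation p = 0.0167) over 6 libraries. After adjustment over the 12118 genes these exact p-values were 0.265 for r and 0.483 for rho, and 0.265 is also the smallest adjusted value of r for any gene. Without KO replicate 1 and WT replicate 2, the libraries farthest from the median level, r was 0.992. The slope stayed between 0.22 and 0.23 when any library was left out, but its call ended without KO replicate 1 (limma, adjusted p = 0.290), KO replicate 3 (0.0586), WT replicate 1 (0.0701), WT replicate 2 (0.243) or WT replicate 3 (0.122). It also ended with total reads as library sizes (0.0556) and without replicate 2 of both genotypes (0.708).

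Psme2 (chr14:55587441-55591113, minus strand), the partner chain of PA28, had a slope of 0.19 ± 0.05 (SE; 95% interval 0.08 to 0.30; limma, adjusted p = 0.0998). Its r was 0.962 (exact permutation p = 0.00694, adjusted 0.326) and 0.857 without the same pair of libraries. Psmd8 had a slope of 0.22 ± 0.06 (SE; limma, adjusted p = 0.123), with r = 0.844 (exact permutation p = 0.0472, adjusted 0.452) and rho = 0.657. Psmb10 (chr8:105935735-105938444, minus strand) had 57.2, 49.8 and 46.8 CPM in KO (51.3 ± 5.34, SD, n = 3) and 36.7, 53.9 and 46.6 CPM in WT (45.7 ± 8.64, SD, n = 3). Its genotypes overlapped, with a fold change of 0.17 (95% interval −0.15 to 0.50; limma, adjusted p = 0.866). Its slope was 0.21 ± 0.08 (SE; limma, adjusted p = 0.269), with r = 0.741 (exact permutation p = 0.0847, adjusted 0.516) and rho = 0.657. Without the libraries farthest from the median, r was 0.372 for Psmd8 and 0.272 for Psmb10 over the remaining 4. With so few libraries and a narrower range of levels, these r values cannot show whether the relations hold without that pair. The slope passed in 3 of 16 alternative settings for Psmd8 and in 2 of 16 for Psmb10. With 1 library left out, the slope of Psmd8 ran between 0.14 (without WT replicate 2) and 0.32 (without KO replicate 2), and that of Psmb10 between 0.13 (without WT replicate 1) and 0.33 (without KO replicate 2). Leaving out WT replicate 1 brought the fold change to 0.064 for Psmd8 and 0.028 for Psmb10, and leaving out WT replicate 2 brought it to 0.30 for each. Psme3, the related activator chain, had a slope of 0.03 and Psmb7 of 0.02; neither passed the test, and the difference between slopes of 2 genes was not tested. Without KO replicate 2, the library with the lowest level, 5 of the 42 passed: Psme1, Psme2 (limma, adjusted p = 0.0353), Psmb10 (0.0255), Psmd8 (0.0030) and Nfe2l1. In that fit the count also rose over all tested genes, to 932 of 12118 (7.69%).

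The neutrophil markers were lowest in KO replicate 1 and WT replicate 2, where the interferon-gene level was highest. The level of the 4 that were tested, in the same units, was −0.89, 0.028 and 0.17 in KO and 0.57, −0.49 and 0.61 in WT, and 1 of them, Ngp, had a negative slope past the threshold, which held in 2 of 6 fits with 1 library left out. The level of the 10 macrophage markers was 0.14, 0.18 and 0.012 in KO and −0.32, 0.21 and −0.23 in WT. The part of either in the slopes was not tested.

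**Figure D4:**
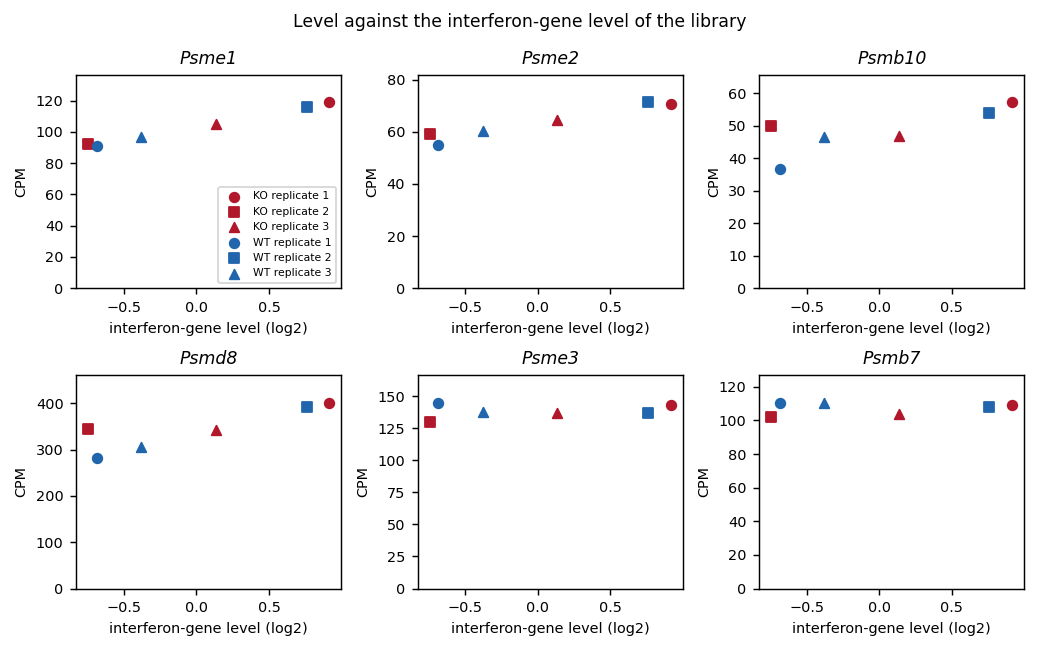
Level in CPM of Psme1, Psme2, Psmb10, Psmd8, Psme3 and Psmb7 in each library against the interferon-gene level of that library (log2 units), with KO and WT points marked. The highest values of Psme1 and Psme2 are those of KO replicate 1 and WT replicate 2, which have the highest level, and WT replicate 1, at 36.7 CPM, is the lowest point of Psmb10.

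Promoters are shown for these 4 genes because their transcripts had the largest range between libraries. Each runs from 250 bases before to 50 bases after a RefSeq gene start (GRCm38.p6), 5′ to 3′ on the gene's strand. Capitals mark the core of the interferon-stimulated response element, searched on both strands as TTTC, any 2 bases, then TTTC.
Psme1, chr14:55578244-55578543, plus strand: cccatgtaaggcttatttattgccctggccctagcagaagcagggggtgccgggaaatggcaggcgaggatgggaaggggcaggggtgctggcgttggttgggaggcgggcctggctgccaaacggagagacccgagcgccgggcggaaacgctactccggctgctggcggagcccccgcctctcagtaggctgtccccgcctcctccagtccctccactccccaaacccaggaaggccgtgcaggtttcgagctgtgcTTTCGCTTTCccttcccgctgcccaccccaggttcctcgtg
Psme2, chr14:55591052-55591351, minus strand: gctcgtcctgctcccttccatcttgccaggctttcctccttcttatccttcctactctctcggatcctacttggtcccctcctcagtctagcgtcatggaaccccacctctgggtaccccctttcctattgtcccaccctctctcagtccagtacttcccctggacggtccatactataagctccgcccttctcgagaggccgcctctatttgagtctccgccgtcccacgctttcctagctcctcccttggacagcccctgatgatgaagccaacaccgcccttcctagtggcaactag
Psmb10, chr8:105938343-105938642, minus strand: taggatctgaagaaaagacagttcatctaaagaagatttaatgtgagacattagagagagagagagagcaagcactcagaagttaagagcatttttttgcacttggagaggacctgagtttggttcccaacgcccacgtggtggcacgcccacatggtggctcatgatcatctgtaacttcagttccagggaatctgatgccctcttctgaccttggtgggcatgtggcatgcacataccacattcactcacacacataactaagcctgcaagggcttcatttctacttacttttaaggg
Psmd8, chr7:29180624-29180923, minus strand: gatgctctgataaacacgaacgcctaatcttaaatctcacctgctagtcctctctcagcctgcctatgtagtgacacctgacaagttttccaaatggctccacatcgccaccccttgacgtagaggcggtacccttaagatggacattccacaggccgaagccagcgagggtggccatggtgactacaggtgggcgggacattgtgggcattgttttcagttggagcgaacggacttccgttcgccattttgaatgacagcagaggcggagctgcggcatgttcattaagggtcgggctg
Of the 4 windows, the one of Psme1 holds the motif, 10 to 19 bases after the start. A second window of Psme2, from another start, holds none either. The table had 43 promoters for 36 of the 42 genes, and 3 of the 43 (6.98%), of Psme1, Psmb3 and Psmd9, held this core, beside 3.44% of all 32851 promoters of this length. Slopes of Psmb3 and Psmd9 were −0.01 and −0.07, and neither passed the test. TTCNNNGAA, a core bound by STAT factors, was in 1 of the 43 (2.33%), of Psmd2, beside 8.30% of all promoters. CCAAT was in 16 of the 43 (37.2%), beside 37.4% of all promoters. TGACNNNGC, a core of the antioxidant response element that NFE2L1 binds, was in 7 of the 43 (16.3%), beside 12.4% of all promoters, and the related TGAGTCA was in 1, of Psmd9, beside 5.20% of all promoters.

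Immunoproteasome formation exchanges catalytic subunits, so the ratio of CPM + 1 of each inducible gene to that of its constitutive counterpart was taken within each library. These are ratios of transcripts and do not show which subunit proteins the particles hold. Psmb10 over Psmb7 was 0.529, 0.492 and 0.456 in KO and 0.339, 0.504 and 0.426 in WT. The WT libraries held both the lowest and the second-highest ratio, and the log2 difference, KO minus WT, was 0.23 (two-sided exact permutation p = 0.3). Psmb8 over Psmb5 was 7.20, 4.37 and 6.28 in KO and 4.76, 6.67 and 5.27 in WT, with a log2 difference of 0.08 (exact permutation p = 0.9). Psmb9 over Psmb6 was 0.337, 0.265 and 0.342 in KO and 0.243, 0.363 and 0.312 in WT, with a log2 difference of 0.05 (exact permutation p = 0.7). The chains of PA28 kept a narrow ratio: Psme1 over Psme2 was 1.67, 1.55 and 1.62 in KO and 1.65, 1.62 and 1.60 in WT, with a log2 difference of −0.0078 (exact permutation p = 0.9). None of the 4 ratios separated the genotypes, and with 3 libraries per genotype the smallest p possible was 0.1.

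**Figure D5:**
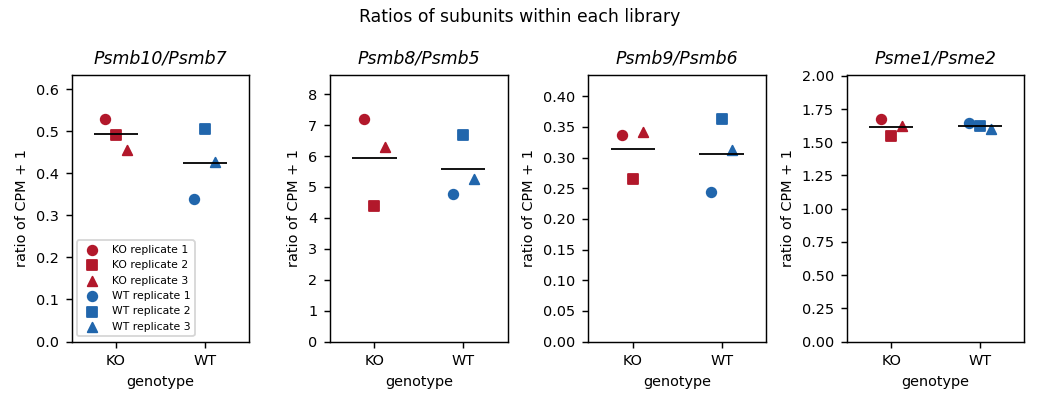
Ratio of CPM + 1 within each library for Psmb10 over Psmb7, Psmb8 over Psmb5, Psmb9 over Psmb6 and Psme1 over Psme2, with KO libraries on the left and WT libraries on the right of each panel and a line at each mean. The genotypes overlap in every panel, and Psme1 over Psme2 stays between 1.55 and 1.67.

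Genes that work with the proteasome were counted from lists drawn up for this comparison. None passed the genotype test in any of them. Of 12 tested genes of the immunoproteasome and peptide supply outside the 42, 7 had a positive and 5 a negative fold change, with a median of 0.06. Psmb8 had 177, 125 and 148 CPM in KO and 118, 170.0 and 138 CPM in WT, and Psmb9 had 45.3, 33.1 and 37.6 CPM in KO and 26.3, 46.2 and 34.4 CPM in WT, overlapping in both. Their slopes on the interferon-gene level were 0.32 for Psmb8 and 0.37 for Psmb9, and both passed the test (limma, adjusted p = 0.00889 for Psmb8 and 0.0386 for Psmb9), as did those of Tap1, Tapbp, B2m and Nlrc5, so 6 of the 12 had a positive slope past the threshold, beside 1.86% of all tested genes. The count of 6 became 2 without KO replicate 1, 4 without WT replicate 2, 5 to 7 with another library left out, and 1 without replicate 2 of both genotypes. The share of all tested genes past the threshold, in either direction, moved as well. It was 0.718% without KO replicate 1, 1.25% without WT replicate 2, 7.69% without KO replicate 2 and 0.173% without replicate 2 of both genotypes. The call of Psmb8 ended without KO replicate 1 (limma, adjusted p = 0.130) or WT replicate 2 (0.0699). That of Psmb9 held in 1 of 6 such fits, without KO replicate 2, and had an adjusted p of 0.0523 to 0.285 in the others and of 0.0511 with total reads as library sizes. Tap1, a subunit of the peptide transporter, averaged 117 ± 38.0 CPM in KO and 101 ± 36.4 CPM in WT (SD, n = 3 each), and the chaperone gene Canx averaged 908 ± 52.5 CPM in KO and 972 ± 81.1 CPM in WT (SD, n = 3 each).

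Of 5 further genes of the 26S particle, 1 had a positive and 4 a negative fold change. Usp14 and Uchl5, deubiquitinases that bind the cap, averaged 157 ± 18.5 and 60.0 ± 6.89 CPM in KO, against 177 ± 10.4 and 65.6 ± 4.82 CPM in WT (SD, n = 3 each). Of 8 assembly genes, 5 were positive and 3 negative: Psmg4, an assembly chaperone, averaged 10.5 ± 0.405 CPM in KO and 8.90 ± 1.03 CPM in WT, and Ecpas, which binds the 26S particle, averaged 177 ± 8.98 CPM in KO and 189.9 ± 5.56 CPM in WT (SD, n = 3 each). Of 15 ubiquitin shuttles and proteasome-bound enzymes, 6 were positive and 9 negative. Usp14 and Uchl5 are counted here as well, and Ddi2 is counted both here and among the genes for NFE2L1 activation. The shuttle gene Rad23b averaged 200.3 ± 16.6 CPM in KO and 221 ± 3.03 CPM in WT (SD, n = 3 each). Zfand2a, from the same list, had a slope of 0.24 on the interferon-gene level that passed the test (limma, adjusted p = 0.0415), and passed it in 1 of 6 fits with 1 library left out, without KO replicate 2. Of 12 genes for NFE2L1 activation and its partners, 6 were positive and 6 negative, with fold changes of 0.14 for Syvn1 and 0.11 for Mafk. Of 10 genes of the p97 segregase, which extracts ubiquitinated proteins, 3 were positive and 7 negative, with −0.11 for Ufd1 and −0.08 for Faf1. Of 6 ubiquitin genes and activating enzymes, 4 were positive and 2 negative: Rps27a, which encodes a ubiquitin fusion, averaged 18.9 ± 8.44 CPM in KO and 14.3 ± 0.566 CPM in WT, and Uba6 had a fold change of −0.13.

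Of 9 tested interferon-gamma-linked genes, 5 (Gbp2, Gbp3, Gbp5, Gbp7 and Cd274) had a positive slope past the threshold, beside 1.86% of all tested genes. With 1 library left out the count was 2 (without KO replicate 1) to 5, at 3 without any 1 WT library, and it was 0 without replicate 2 of both genotypes. Over all tested genes, slopes of either direction passed in 0.718% without KO replicate 1 and in 1.25% to 2.14% without 1 WT library. Without replicate 2 of both genotypes 0.173% passed. With genotype, 6 of these 9 had a positive and 3 a negative fold change, Cxcl10 with −0.36 and Irf8 with 0.17, neither past the adjusted threshold. Of the 29 interferon-stimulated genes behind the level, 27 had a positive and 2 a negative fold change, with a median of 0.17 and values of 0.25 for Stat2 and 0.34 for Bst2; none passed the genotype test.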

How the data were processed

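Polyadenylated RNA was sequenced in 6 libraries, 3 KO and 3 WT, grouped by title; the labels' protocols name a KAPA mRNA kit. The submitters' processing notes list FastQC 0.11.15, Trimmomatic 0.36, Cufflinks, HISAT2 2.1.0 and HTSeq 0.11.0. Their roles, build, annotation and strand setting: not given in the sources used here. Values deposited by the authors are log2 CPM, per the file headers and their range, in which decimal marks had been lost. The marks were restored from the steps of whole reads, and 100% of values came out whole within 1e-04 of a read; 1 read was worth 0.0277 to 0.0400 CPM. The authors' deposited fold changes and p-values were not used.

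CPM were recomputed with the authors' scaling. The 12118 genes that reached 1 CPM in 3 or more libraries were fitted on log2(CPM + 1) with limma 3.58.1 (eBayes with trend, R 4.3.3), two-sided, with Benjamini-Hochberg adjustment over all of them and a threshold of 0.05. A log2 fold change on this scale understates changes of low genes. A second fit added the interferon-gene level. The fit was tested on simulated data. Replicates differed by more than sampling noise (chi-square per degree of freedom 10.1 to 40.3), so none were merged. Exact permutation tests covered ratios and correlations. Intervals are at 95%.

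The members and lists were chosen with earlier results of these data known. The named genes are those with set roles (activators, assembly genes, catalytic subunits), the 3 smallest p per role, the 4 largest ranges, any gene past the threshold, and otherwise the 2 smallest p per list. Genes given for a motif alone were named after their values were seen. Alternatives were the pseudocount, the filter, library sizes, limma-voom, added terms and left-out libraries.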

Additional observations from a re-analysis of the deposited data

How the results depend on the processing

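No proteasome gene passed the genotype test under any of the 16 alternatives. Over all tested genes the count of 2 became 1 without a filter and with limma-voom, 4 with the interferon-gene level as a term, 24 without replicate 2 of both genotypes, and 1 to 8 with 1 library left out. Of the proteasome genes, 1 had a slope past the threshold, as did 2.24% of all tested genes. The count became 0 with total reads as library sizes (2.14% of all tested genes), 4 with a replicate block (8.05%) and 3 with an Xist term (7.22%). It was 0 without replicate 2 of both genotypes (0.173%) and 0 to 5 with 1 library left out (0.718% to 7.69%). Deviations of same-numbered libraries correlated at −0.22, −0.13 and 0.14, and no library correlated best with its own number. With 3 libraries per genotype these values cannot decide whether the numbers mark pairs. The replicates numbered 2 did share low Xist reads, 28 in KO and 14 in WT. Leaving out 1 library turned the sign of these log2 fold changes, none of them called: Psme1 −0.035 to 0.16, Psme2 −0.019 to 0.16, Psme4 −0.078 to 0.067, Psmf1 −0.036 to 0.072, Pomp −0.062 to 0.0095, Nfe2l1 −0.0054 to 0.15, Adrm1 −0.055 to 0.074, Psmb5 −0.084 to 0.054, Psmc2 −0.067 to 0.034, Psmb8 −0.048 to 0.22, Psmb9 −0.056 to 0.34, Tap1 −0.020 to 0.50, Rps27a −0.028 to 0.49 and Bst2 −0.012 to 0.76. The ratios ranged as Psmb8 over Psmb5 −0.073 to 0.29, Psmb9 over Psmb6 −0.11 to 0.18 and Psme1 over Psme2 −0.035 to 0.022 on the log2 scale. Slopes ranged as Psme3 −0.016 to 0.072, Psmf1 −0.13 to 0.042, Pomp −0.018 to 0.052, Adrm1 −0.056 to 0.090, Psmb5 −0.12 to 0.021, Psmb7 −0.011 to 0.053, Psma6 −0.024 to 0.041, Psma1 −0.0083 to 0.037, Psmb1 −0.024 to 0.024, Psmd14 −0.077 to 0.016, Psmd1 −0.0086 to 0.074 and Psmb3 −0.035 to 0.037. Without replicate 2 of both genotypes the fold changes were Psme4 0.089, Psmf1 −0.0028, Pomp 0.0025, Adrm1 −0.0092, Psmc2 0.041, Rps27a −0.0039 and Uba6 0.022, and the slopes Psme4 −0.13, Pomp −0.15, Psmb5 0.097, Psma6 −0.051, Psma1 −0.046, Psma3 −0.13, Psmb1 −0.071, Psmb2 0.012, Psmb3 0.082 and Psmc6 −0.042. With total reads the slopes were Pomp −0.019, Adrm1 −0.015, Psmb7 −0.0026, Psma6 −0.0072, Psma1 −0.0056, Psmd2 −0.0022 and Psmb1 −0.017. With the interferon-gene level as a term, Psmb5 had a fold change of 0.013. The cause of these reversals was not tested. Of the 43 fold changes and 39 slopes recomputed, the others kept their direction. With 3 libraries per genotype, small changes of the proteasome genes could not be detected. The intervals given above are not adjusted for the number of genes tested, so changes larger than these can be missed too. The interval of Psmd14 did not include 0, yet its adjusted p was 0.866 (limma). Intervals and counts of reads cover these libraries, and no scaling moved the median of all genes by 0.1 or more on the log2 scale.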
